A study of Homo sapiens with 4 samples.

Results

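Proteins bound for secretion or for membranes enter the endoplasmic reticulum (ER) through a chain of complexes, and 43 genes of that chain were followed here by name. They encode the signal recognition particle (SRP) and its receptor, the SEC61 translocon with its partners, signal peptidase, oligosaccharyltransferase (OST) and the ALG enzymes that build the sugar chain OST transfers. A gene was read from the brightest probe set annotated to it alone, which gave 42 genes of the 18417 that could be named in this way; SEC61G had no such probe set and is not analysed here. The cells were MiaPaCa2, an established human pancreatic ductal adenocarcinoma line, exposed during 24 h either to 50 µM LY101-4B, which the series' title calls an E2F inhibitor, or to its vehicle, with 2 arrays for each. A protocol text attached to the same samples names LY101-4D at 25 µM, while titles, agent labels and design give LY101-4B at 50 µM, and the latter were followed. Each group is this single line with no other genotype or agent, and the design calls the arrays of a group biological replicates without saying how the cultures were separated. The p-values then measure the spread between these arrays only.

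SRP binds the signal sequence of a nascent protein and docks the ribosome on the SRP receptor, after which the chain is threaded through the SEC61 channel. Signal peptidase removes the signal sequence, and OST moves a preassembled glycan from the lipid dolichol to asparagine residues of the entering chain. Genes of this chain are known targets of the unfolded protein response, through which cells adjust ER capacity, and secretory cells of the pancreas are a classical system for its study.

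Values are log2 signals after RMA (a procedure that corrects background, equalises the arrays' distributions and summarises probes), so a difference of 1 is a 2-fold change relative to the bulk of probe sets. Array medians lay between 5.88 and 5.97. Of the 42 genes 41 lay above the array median on all arrays, and TUSC3 lay below it on all 4. The replicates of these genes were close, with a median gap of 0.042 log2 units between vehicle arrays and 0.058 between LY101-4B arrays. The widest gap, 0.52, was that of ALG6 with LY101-4B. Among markers of the line the keratin genes KRT8 (12.76 and 12.79 in vehicle) and KRT18 and the filament gene VIM were bright, while the epithelial genes EPCAM (3.77 to 4.12) and CDH1 (4.44 to 4.63) lay under the array medians. KRT8 fell by 0.84 with LY101-4B (limma adjusted p 0.00371) and KRT18 by 0.57 (0.0106). The keratin gene KRT19 did not pass (-0.09, limma adjusted p 0.619). It read 9.28 and 9.15 in vehicle and 9.06 and 9.20 with LY101-4B, groups that overlapped. Of 12 immune, fibroblast, endothelial and acinar markers 11 were measured, 8 of them below the array median on all arrays, PTPRC (3.36 to 3.56) among them. The fibroblast collagen gene COL1A2 rose by 0.47 and the immune gene LYZ fell by 1.22, the only calls among the 11. Their summed linear signal was 1380 and 1408 in vehicle and 1753 and 1687 with LY101-4B. COL1A2 was the brightest of the 11 (9.87 and 9.92 against 10.40 and 10.33) and weighed most in that sum. The labels name a single line and no other cell type, and a part of other cells in the results below was not tested. Bulk RNA of a line does not tell a change in all cells from a change in some of them.

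With LY101-4B 19 of the 42 genes rose, 3 fell and 20 did not pass (limma, Benjamini-Hochberg adjusted p under 0.05). Over all 21214 probe sets tested 9.10% rose and 10.5% fell, against 45.2% and 7.14% of the 42 genes. Among the brighter 50% of probe sets, where 41 of the genes lie, 14.4% rose and 18.9% fell. The median difference of the 42 genes was 0.30 log2 units, against 0.01 over all probe sets. It was 0.30 on the first LY101-4B array and 0.31 on the second when each was set against the vehicle mean. The first of these arrays lay above both vehicle arrays for 33 genes and the second for 32. The 2 groups did not overlap for 38 of the 42 genes, a property that 58.0% of all probe sets and 75.3% of the brighter 50% shared. The changes were small: SEC11C and OSTC were the only called genes here that changed by at least 2-fold. The number of calls leaned on the vehicle arrays, while the size of the differences did not. The median difference of the 42 genes was 0.31 without vehicle replicate 1 and 0.32 without vehicle replicate 2. Dropping vehicle replicate 1 left 7 rises and 0 falls, and dropping vehicle replicate 2 left 8 and 0 (limma; at an unadjusted p under 0.05 there were 18 and 3, and 19 and 3), and over all probe sets the rises went from 1930 to 755 and 874 in these fits. Testing all 33297 rows of the table gave 12 higher and 1 lower: SRP54, SSR2, SPCS2, SPCS3, RPN1, DDOST and DAD1 and, among the falls, SRP9 and ALG6 then missed the threshold (adjusted p 0.0512 to 0.111). SEC61A1, SEC61B, SSR3, SEC11C, OSTC, MAGT1 and ALG2 kept their call in each of the 12 alternative analyses.

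**Figure D1:**
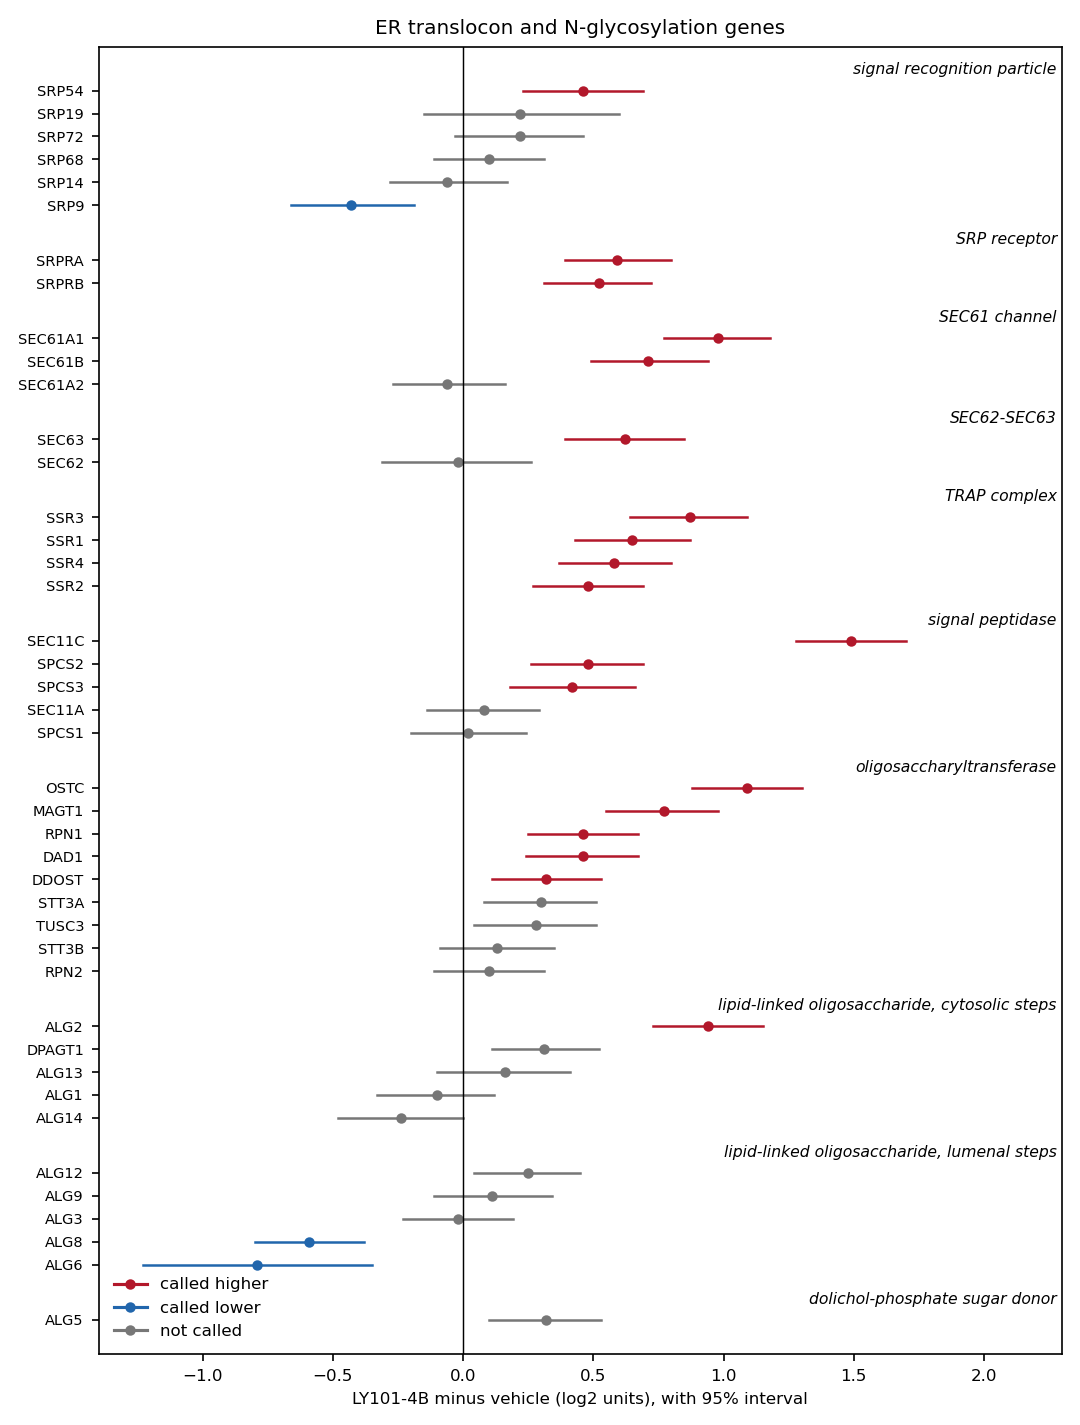
Difference between LY101-4B and vehicle (log2 units, horizontal axis) for the 42 genes, ordered within complexes. Points are limma estimates from 2 arrays per group and bars their 95% intervals; the 19 red genes were called higher, the 3 blue genes lower, with SEC11C (1.49) and ALG6 (-0.79) at the ends.

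The genes at the far ends are shown on each array in the plot of called genes. For all 22 both LY101-4B arrays lay on the same side of both vehicle arrays. The calls came from these same arrays, so this is no added support. The groups also lay apart for 58.0% of all probe sets and 75.3% of the brighter 50%. Vehicle arrays nearly coincided, and ALG6 was the gene whose LY101-4B arrays stood farthest apart.

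**Figure D2:**
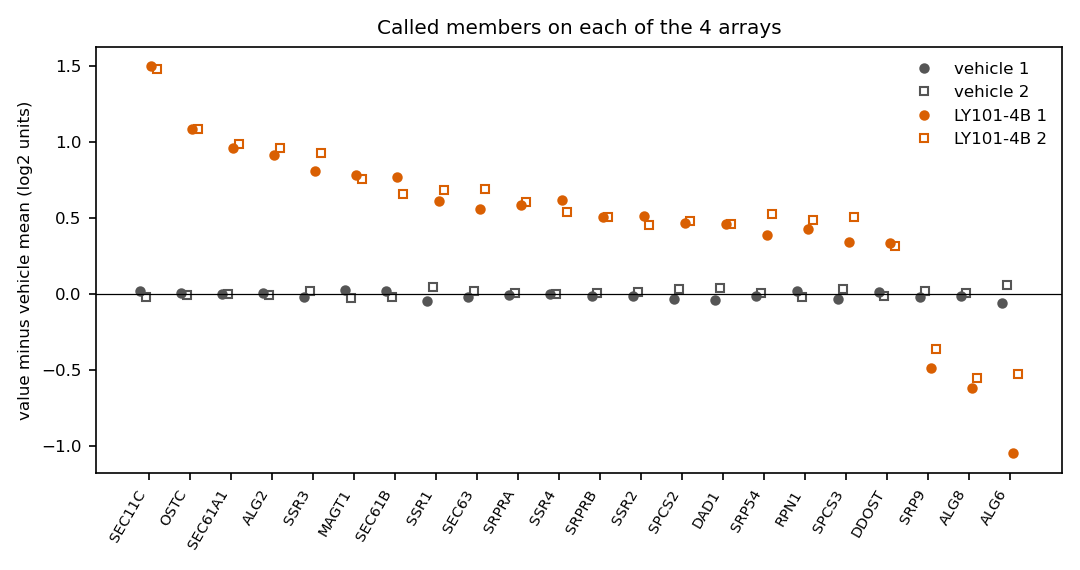
Value on each of the 4 arrays minus the gene's vehicle mean (log2 units, vertical axis) for the 22 called genes, ordered by difference. Grey symbols are vehicle and orange symbols LY101-4B arrays. The 19 genes that rose lie above 0 on both LY101-4B arrays and the 3 that fell lie below it. The arrays shown are those that gave the calls.

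Some of the promoter elements that transcription factors of the unfolded protein response are known to bind contain ACGT. The RefSeq promoters of these genes (GRCh38.p14, 250 bases before to 50 after a start site) were searched on both strands. A promoter was held for 37 of the 42 genes, among them 17 that rose, 3 that fell and 17 that did not pass. The core CCACGT was present for 12 of the 37, namely for 8 of the 17 that rose, 0 of the 3 that fell and 4 of the 17 that did not pass, and for 11.6% of all 27305 genes in that table, which also holds non-coding genes. The longer element TGACGTGG, which contains that core on the other strand, was present for SSR3 and SSR4, which rose, and for SRP19 and SEC62, which did not pass, and for 0.927% of all genes. The ER stress element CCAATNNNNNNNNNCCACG was found only for ALG12 among the 37, and in 0.0916% of all genes. The ATF4-type element TGATGNAA was found for SRPRB alone, and in 4.46% of all genes. CCACGT was picked after several patterns had been searched with the calls known, so these counts are a description, and a match says nothing of binding. The windows below are examples from 5 of the 8 genes that rose and, last, from SEC62, 1 of the 4 that did not pass. Those of SRPRB, SSR4 and SPCS2, which rose, and of SRP19, ALG1 and ALG3, which did not pass, are not shown. Capitals mark CCACGT or its reverse complement ACGTGG, or for SEC62 the longer element. Relative to a start site the capitals begin at -41, -245, -212, -87, -72 and -17, in the order shown, and for SSR3 the most upstream of its start sites is meant.
SEC11C, chr18:59139813-59139878, plus strand: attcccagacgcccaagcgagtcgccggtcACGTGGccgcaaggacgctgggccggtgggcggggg
OSTC, chr4:108650349-108650389, plus strand: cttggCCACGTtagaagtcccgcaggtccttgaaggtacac
SSR3, chr3:156555294-156555359, minus strand: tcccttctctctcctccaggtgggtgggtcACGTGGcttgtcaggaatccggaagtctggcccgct
SSR1, chr6:7313251-7313316, minus strand: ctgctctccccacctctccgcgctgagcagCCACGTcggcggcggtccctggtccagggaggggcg
SEC63, chr6:107958245-107958310, minus strand: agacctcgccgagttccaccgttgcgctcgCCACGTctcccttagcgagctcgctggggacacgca
SEC62, chr3:169966760-169966806, plus strand: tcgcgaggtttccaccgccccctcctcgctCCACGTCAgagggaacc

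Of the genes for targeting to the ER both receptor genes rose, whereas of 6 SRP genes 1 rose, 1 fell and 4 did not pass. The SRP counts are 16.7% each way, close to the 14.4% and 18.9% of the brighter 50% of probe sets (9.10% and 10.5% of all). SRPRA, the receptor GTPase, read 9.94 and 9.95 in vehicle and 10.53 and 10.55 with LY101-4B, a rise of 0.59 ± 0.084 log2 units (SE) at a limma adjusted p of 0.00703. SRPRB, its membrane anchor, read 10.17 and 10.19 against 10.69 and 10.69 (0.52, adjusted p 0.0109). The groups of both genes were far apart beside gaps of at most 0.02 between replicates. SRP54, the subunit that holds the signal sequence and pairs with the receptor GTPase, read 9.70 and 9.72 in vehicle and 10.10 and 10.24 with LY101-4B, and rose by 0.46 (adjusted p 0.0222).

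SRP9, which with SRP14 forms the part of the particle that slows elongation, went the other way. It read 10.96 and 11.00 in vehicle and 10.49 and 10.62 with LY101-4B, a fall of 1.34-fold (adjusted p 0.029), and its dimmer probe set fell 1.32-fold. Its partner SRP14 gave 10.42 and 10.53 against 10.44 and 10.40, groups that overlapped (-0.06, 95% interval -0.28 to 0.17). SRP19, SRP72 and SRP68, which help assemble the particle's core, differed by 0.22, 0.22 and 0.10 and did not pass, and for SRP19 replicate arrays with LY101-4B were 9.13 and 8.74. Without either vehicle array SRP9 (adjusted p 0.148 and 0.188), SRP54 (0.148 and 0.131), SRPRA (0.0654 and 0.0589) and SRPRB (0.0972 and 0.086) missed the threshold, and SRP9 also without LY101-4B replicate 1 (0.0738).

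Of the 3 channel genes measured 2 rose (66.7%), beside 9.10% of all probe sets and 14.4% of the brighter 50%. SEC61A1, the pore-forming subunit, read 10.99 on both vehicle arrays and 11.95 and 11.98 with LY101-4B, a rise of 1.97-fold (0.98 ± 0.084, SE; adjusted p 0.00176). SEC61B, a small tail-anchored subunit, read 9.87 and 9.83 against 10.62 and 10.51 and rose 1.64-fold (adjusted p 0.00516). SEC61A2, the paralogue of the pore subunit, stayed within 7.59 to 7.69 on all arrays (-0.06, 95% interval -0.27 to 0.16). SEC63, which couples the channel to the lumenal chaperone BiP, rose 1.54-fold, from 11.09 and 11.13 to 11.67 and 11.80 (adjusted p 0.00832). Its partner SEC62 gave 9.06 and 9.20 in vehicle and 9.0 and 9.23 with LY101-4B, so that the vehicle arrays lay between the treated ones (-0.02, 95% interval -0.31 to 0.26). The SEC63 call was lost without vehicle replicate 1 (adjusted p 0.0686) or 2 (0.0551).

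All 4 genes of the translocon-associated protein complex (TRAP), which sits beside the channel and helps some signal sequences to enter, rose. The share that rose was 9.10% of all probe sets and 14.4% of the brighter 50%. SSR3 showed the largest difference of the complex, with 9.77 and 9.81 in vehicle and 10.60 and 10.72 with LY101-4B (1.82-fold, adjusted p 0.00292). SSR1 went from 11.17 and 11.26 to 11.83 and 11.90 (1.57-fold, adjusted p 0.00677). SSR4 went from 8.95 on both arrays to 9.57 and 9.49 (1.5-fold, adjusted p 0.00832). SSR2 went from 11.92 and 11.95 to 12.45 and 12.39 (1.4-fold, adjusted p 0.0149). The 4 differences ran from 0.48 to 0.87. Without vehicle replicate 1 the calls of SSR1 (adjusted p 0.0628), SSR2 (0.124) and SSR4 (0.0693) were lost, and without vehicle replicate 2 those of SSR2 (0.102) and SSR4 (0.0678).

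Signal peptidase held the largest rise of all 42 genes. SEC11C, which encodes one of the alternative catalytic subunits, read 8.48 and 8.44 in vehicle and 9.96 and 9.94 with LY101-4B, a rise of 2.81-fold (1.49 ± 0.084, SE; adjusted p 0.000675). The other catalytic subunit gene, SEC11A, read 8.94 and 8.99 against 9.06 and 9.02 (0.08, 95% interval -0.14 to 0.29). Of the accessory subunits SPCS2 rose 1.39-fold (10.42 and 10.48 against 10.92 and 10.93, adjusted p 0.0152), and its dimmer probe set 1.44-fold. SPCS3, needed for cleavage, rose 1.34-fold, from 9.12 and 9.18 to 9.49 and 9.66 (adjusted p 0.0342). SPCS1 gave 9.74 and 9.72 against 9.80 and 9.70, overlapping groups (0.02, 95% interval -0.20 to 0.24). Dropping vehicle replicate 1 or 2 ended the calls of SPCS2 (adjusted p 0.134 and 0.0953) and SPCS3 (0.208 and 0.157). SPCS3 also missed the threshold when LY101-4B replicate 2 was dropped (0.0703) and with median centring (0.0666).

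For OST, 5 of 9 genes rose (55.6%), 0 fell and 4 did not pass (limma, and 7 and 0 at an unadjusted p under 0.05). Beside this, 9.10% of all probe sets rose and 10.5% fell, and 14.4% and 18.9% of the brighter 50%. At an unadjusted p under 0.05 in limma, 3231 of the 21214 probe sets rose and 3607 fell. OST exists in a form built on STT3A, which works at the translocon and contains OSTC, and a form built on STT3B, which contains MAGT1 or TUSC3. OSTC rose most, from 9.67 and 9.66 to 10.75 on both arrays (2.13-fold, 1.09 ± 0.084, SE; adjusted p 0.00132). MAGT1, an oxidoreductase subunit that is also linked to magnesium transport, rose 1.70-fold, from 10.61 and 10.56 to 11.37 and 11.34 (adjusted p 0.00342). A dimmer MAGT1 probe set, at 3.28 to 3.45 on the 4 arrays, did not pass (0.09).

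The shared subunits of OST gave smaller differences. RPN1, ribophorin I, went from 11.22 and 11.18 to 11.63 and 11.69 (1.37-fold, adjusted p 0.0175), and DAD1, named as a defender against cell death, from 12.19 and 12.27 to 12.69 on both arrays (1.38-fold, adjusted p 0.018). DDOST gave 10.39 and 10.36 against 10.71 and 10.69 (1.25-fold), and its adjusted p of 0.0493 was the weakest among the 22 calls, lost in 8 of 12 alternatives, among them those without any single one of the 4 arrays (0.0705 to 0.29). RPN2, ribophorin II, differed by 0.10 (95% interval -0.11 to 0.31). The RPN1 and DAD1 calls were lost without vehicle replicate 1 (adjusted p 0.113 and 0.157) or 2 (0.144 and 0.0978).

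Of the catalytic subunits, STT3A gave 11.48 and 11.53 in vehicle and 11.78 and 11.83 with LY101-4B (0.30, 95% interval 0.08 to 0.51; adjusted p 0.0659), and passed under cyclic loess (0.02), with the brighter 50% of probe sets (0.019) and with an intensity trend (0.00235). STT3B gave 10.34 and 10.40 against 10.45 and 10.55 (0.13, adjusted p 0.40). TUSC3, the MAGT1 paralogue, gave 4.64 and 4.80 against 5.00 and 4.99 (0.28, adjusted p 0.107). It was the one dim gene here, and the table carries no call of whether a signal exceeded background.

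In each of 4 paralogue pairs the genes were compared within an array, as the difference of their log2 signals, which cancels what an array does to both. The SEC11C minus SEC11A difference moved from -0.46 and -0.54 in vehicle to 0.90 and 0.92 with LY101-4B, a shift of 1.41. That of SEC61A1 minus SEC61A2 moved from 3.31 and 3.30 to 4.29 and 4.39, a shift of 1.03. The shift of MAGT1 minus TUSC3 was 0.49, with vehicle values 5.98 and 5.77 and LY101-4B values 6.37 and 6.35; TUSC3 lay below the array median throughout, so this shift rests on a dim signal, and MAGT1 alone changed by 0.77. STT3A minus STT3B shifted least, by 0.17, from 1.14 and 1.13 to 1.33 and 1.28. For the 4 pairs the groups lay apart by 1.36, 0.98, 0.37 and 0.14. A design of 2 arrays against 2 cannot go below a 2-sided exact permutation p of 0.333, which all 4 pairs gave (0.333 after adjustment over the 4), so this test cannot separate them from chance. Signals of different probe sets are not on a common scale, so a pair's level has no meaning, only its shift.

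**Figure D3:**
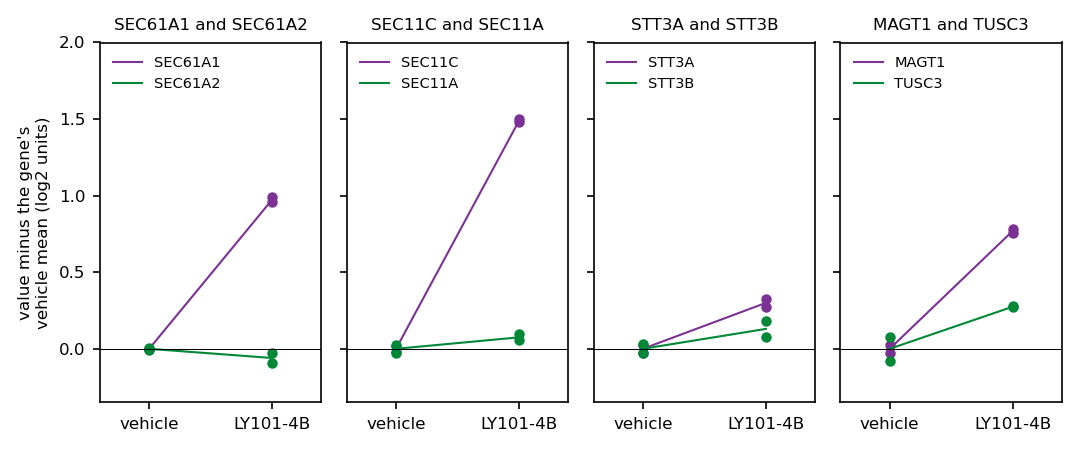
Signal minus the gene's own vehicle mean (log2 units, vertical axis) for the 4 paralogue pairs; points are single arrays and lines join group means. SEC11C and SEC61A1 rose by 1.49 and 0.98 while SEC11A (0.08) and SEC61A2 (-0.06) did not pass; STT3A and STT3B lay closer (0.30 and 0.13).

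The enzymes that build the glycan on dolichol did not move together. On the cytosolic face 1 of 5 genes rose and 0 fell (limma, and 2 and 1 at an unadjusted p under 0.05). That rise is 20% of the 5, beside 14.4% of the brighter 50% of probe sets and 9.10% of all. ALG2, which adds the mannoses that follow the first, read 9.15 and 9.14 in vehicle and 10.06 and 10.11 with LY101-4B, a rise of 1.91-fold (0.94 ± 0.085, SE; adjusted p 0.00195). DPAGT1, the enzyme of the first step, read 8.39 on both vehicle arrays and 8.70 and 8.71 with LY101-4B, a tight separation that missed the threshold (0.31, adjusted p 0.0519) and passed under cyclic loess (0.0289), the brighter 50% (0.0137) and an intensity trend (0.0196). ALG13 and ALG14, which together add the second N-acetylglucosamine, differed by 0.16 and -0.24 (adjusted p 0.369 and 0.152), and ALG1, which adds the first mannose, by -0.10 (0.502). A dimmer ALG13 probe set, at 5.93 and 6.04 against 6.41 and 6.44, rose by 0.44 (adjusted p 0.0226) while the brighter one did not pass. Both differences were positive, with 95% intervals of -0.10 to 0.41 for the brighter and 0.22 to 0.66 for the dimmer probe set, and the difference between them was not tested.

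On the lumenal face 2 of 5 genes fell and 0 rose (limma, and 2 and 1 at an unadjusted p under 0.05). The falls are 40% of these 5 genes, beside 18.9% of the brighter 50% of probe sets and 10.5% of all. Both genes that fell add glucose, in consecutive steps. The ALG enzymes ALG10 and ALG10B, and ALG11 of the cytosolic face, had no probe set of their own, so not every step was covered. ALG8, which adds the second glucose, read 9.97 and 9.99 in vehicle and 9.36 and 9.43 with LY101-4B, a fall of 1.51-fold (adjusted p 0.0078). ALG6, which adds the first, read 7.47 and 7.59 against 6.48 and 7.0. It fell 1.73-fold (-0.79 ± 0.178, SE; adjusted p 0.0307), and the 0.52 between its LY101-4B arrays makes its size the least certain among the calls. Left without vehicle replicate 1 or 2, ALG8 (adjusted p 0.063 and 0.067) and ALG6 (0.0798 and 0.12) missed the threshold, with differences of -0.60 and -0.58, and of -0.85 and -0.73.

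The mannosyltransferase genes of the same face did not pass. ALG12 gave 7.22 and 7.21 against 7.47 and 7.45 (0.25, adjusted p 0.101), ALG9 differed by 0.11 (0.458) and ALG3 by -0.02 (0.905), with ALG3 between 10.27 and 10.30 on all arrays. ALG12 passed with the brighter 50% of probe sets (0.0316). ALG5, which makes the dolichol-linked glucose that ALG6 and ALG8 use, gave 7.89 on both vehicle arrays and 8.18 and 8.24 with LY101-4B (0.32, 95% interval 0.10 to 0.53). It missed the threshold (adjusted p 0.0539) and passed under cyclic loess (0.0306), the brighter 50% (0.0147) and an intensity trend (0.0288).

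Other genes of the pathway were read from a list of 63, of which 52 had a probe set of their own. Of these 14 rose (26.9%), 3 fell (5.77%) and 35 did not pass, with a median of 0.11, beside the 9.10% and 10.5% of all probe sets and the 14.4% and 18.9% of the brighter 50%. The count of falls moved with the setting, to 6 with median centring, 8 with the brighter 50% and 7 with an intensity trend. The rises were 8 without vehicle replicate 1 and 9 without vehicle replicate 2, and the falls 0 in each case (limma; at an unadjusted p under 0.05, 3 and 2 fell). Around the translocon 4 of 10 genes rose and 1 fell. SERP1, a small ER stress-associated protein of the channel, went from 9.90 and 10.04 to 11.12 and 11.30 (2.37-fold, adjusted p 0.00176). TRAM1, which chaperones chains crossing the channel, went from 10.02 and 10.12 to 11.14 and 11.29 (2.21-fold, 0.00176). HM13, the peptidase that clears spent signal sequences, rose 1.87-fold. RRBP1, a ribosome-binding ER protein, rose 1.65-fold, and TRAM2, a TRAM1 paralogue, fell 1.55-fold, from 8.46 and 8.69 to 7.80 and 8.08 (adjusted p 0.0263); RRBP1 and TRAM2 were named after their values were seen. KRTCAP2 and TMEM258, further OST subunits, rose 1.41-fold and 1.37-fold, and both calls were lost without vehicle replicate 1 (adjusted p 0.102 and 0.173) or 2 (0.102 and 0.119), that of TMEM258 also without LY101-4B replicate 1 (0.0654).

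The ER membrane protein complex, a separate insertase for membrane proteins, had 0 of 10 genes higher and 2 lower (limma; 1 and 3 at an unadjusted p under 0.05), and its 20% lower is close to the 18.9% of the brighter 50% of probe sets. EMC1 fell 1.4-fold (9.75 and 9.77 against 9.22 and 9.33, adjusted p 0.0172) and EMC8 1.30-fold (adjusted p 0.039, lost in 7 of 12 alternatives, with 0.0639 to 0.269 without a single array). For the tail-anchor insertion genes, which serve proteins with a C-terminal anchor, 0 of 6 passed in either direction (limma; 1 and 2 at an unadjusted p under 0.05), and SGTA came nearest (-0.30, adjusted p 0.063), passing with median centring (0.04), the brighter 50% (0.0179) and an intensity trend (0.0158). Without vehicle replicate 1 or 2, TRAM2 (adjusted p 0.0529 and 0.141) and EMC1 (0.115 and 0.125) missed the threshold, and TRAM2 also without LY101-4B replicate 1 (0.0828).

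Sugar supply held the largest rise of the wider list. GFPT1, the rate-limiting enzyme of hexosamine synthesis, went from 9.59 and 9.57 to 11.46 and 11.52, or 3.75-fold (adjusted p 0.00043). GMPPA and GMPPB, subunits of the enzyme system for GDP-mannose, rose 2.01-fold and 1.77-fold (adjusted p 0.00212 and 0.0055), and MPI, an earlier enzyme of that branch named after its value was seen, rose 1.33-fold. The next hexosamine genes GNPNAT1 (-0.05) and UAP1 (-0.02) had overlapping groups; they too were named after their values were seen. DHDDS, a subunit of the dolichol-chain synthase, rose 1.67-fold (limma adjusted p 0.00488). It was the only call among 8 genes of dolichol synthesis and use, or 12.5%, beside 14.4% higher among the brighter 50% of probe sets. After transfer the glycan is trimmed and read by folding sensors, and 3 of 8 such genes rose: the glucosidase MOGS 1.57-fold, and the sensors UGGT1 and UGGT2 1.35-fold and 1.41-fold. The UGGT1 (adjusted p 0.173 and 0.119), UGGT2 (0.17 and 0.137) and MPI (0.158 and 0.181) calls were lost without vehicle replicate 1 or 2, and that of MOGS without vehicle replicate 1 (0.0622). Without LY101-4B replicate 2 UGGT2 (0.0593) and MPI (0.0584) missed the threshold too, as they did with median centring (0.0558 and 0.0538) and over all rows (0.0946 and 0.0769), and UGGT2 under cyclic loess (0.054).

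**Figure D4:**
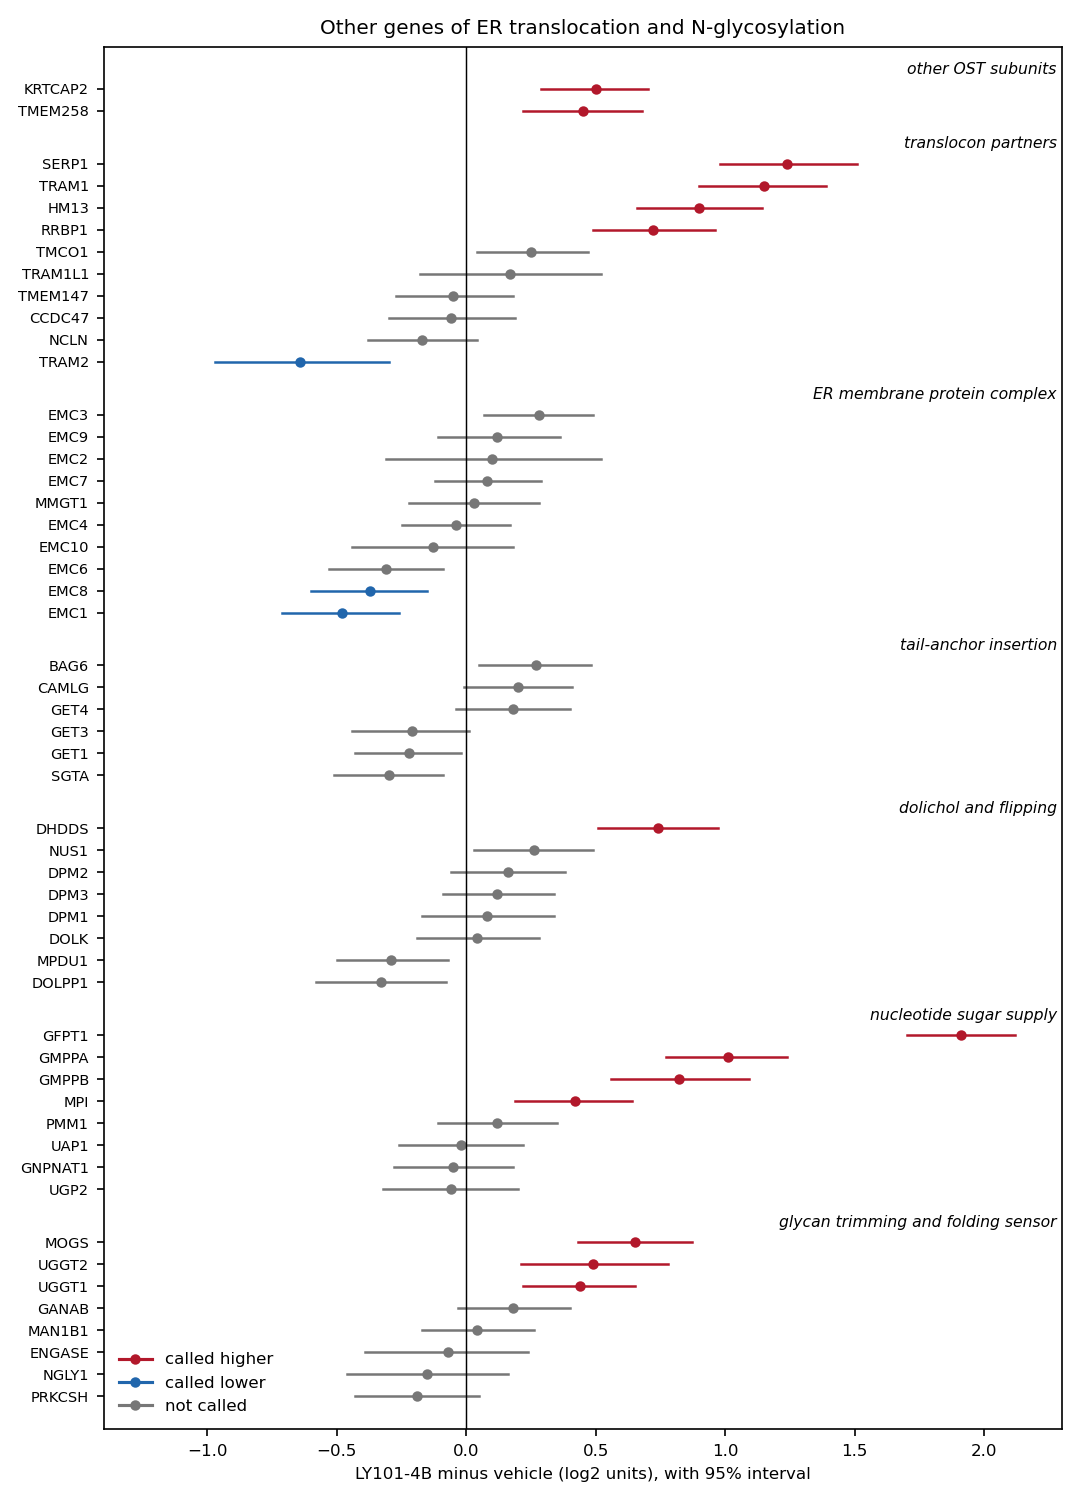
Difference between LY101-4B and vehicle (log2 units, horizontal axis, with 95% intervals, 2 arrays per group) for 52 other genes of the pathway, by function. GFPT1 (1.91), SERP1 (1.24) and TRAM1 (1.15) lie farthest right, and TRAM2 (-0.64), EMC1 (-0.48) and EMC8 (-0.37) are the 3 genes called lower.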

How the data were processed

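The deposited table holds log2 expression values of Human Gene 1.0 ST arrays, which the submitters' processing notes credit to RMA, with version, probe set definitions and filters not given in the sources used here. Of 33297 rows, 19460 had 1 gene symbol in the platform annotation, 1754 several and 12083 none, and 0 columns stayed unmapped. The 21214 annotated probe sets were fitted with limma 3.58.1 in R 4.3.3 (lmFit, eBayes, treatment as the only term, 2 residual and 3.75 prior degrees of freedom), with Benjamini-Hochberg adjustment and a threshold of 0.05. The fit was tested on data simulated with its own variance model, so that test cannot tell whether the model holds for these arrays. Array number limits the precision. Every measured gene of the 42 is named; in the wider list up to 3 called genes per group, or that of lowest p in a group without calls, with exceptions marked. These genes, the lists and the paralogue pairs were chosen with earlier results of these data known. RMA equalises the arrays, so a global shift cannot be seen. Scanner files were not used here.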

Additional observations from a re-analysis of the deposited data

How the results depend on the processing

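In 12 alternative analyses 0 of the 22 called genes changed direction, and 7 kept their call in each. The median of 0.30 was 0.36 under cyclic loess and 0.24 with median centring. With all rows tested, 12 genes were called higher and 1 lower, and 0 of the wider list lower (7 at an unadjusted p under 0.05, limma). Leaving out 1 array gave 7 to 18 genes higher and 0 to 3 lower, and 8 to 13 and 0 to 3 in the wider list. A lone array of a group was then assumed to vary like the other group. The loss of calls was larger without a vehicle array than without an LY101-4B array. Over all probe sets tested, differences between replicates had an SD of 0.164 in vehicle and 0.223 with LY101-4B. The cause of the larger loss was not tested. The wider list had 6 lower with median centring, 8 with the brighter 50% and 7 with an intensity trend. Among genes that did not pass, the sign turned under cyclic loess for SRP14 (0.05), SEC62 (0.06) and ALG3 (0.08), and with median centring for SPCS1 (-0.04). Without 1 array SRP14 ranged from -0.11 to 0.00, SEC62 from -0.14 to 0.10 and SPCS1 from -0.03 to 0.07. Replicate numbers recur in both groups, with a correlation of 0.116 between deviations, and nothing in the labels pairs them. With the replicate number as a block, 18 genes were called higher and 3 lower, each also called without it, and DDOST missed the threshold (adjusted p 0.0641), as did EMC8 in the wider list (0.0514; 14 higher and 2 lower there). Without detection calls, dim signals have no stated floor.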
